A study of Homo sapiens with 6 samples.

Results

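The genes described here are 10 long noncoding RNAs, taken by name from the 33451 genes in the table of counts: the snoRNA host genes SNHG1, SNHG5, SNHG6, SNHG7, SNHG8, SNHG12, SNHG15 and GAS5, and the nuclear RNAs MALAT1 and NEAT1. The list was set by name, with no limit on any measured value, and earlier results of these data were known when it was made. They were followed in MDA-MB-453, an established human breast cancer cell line, which was cultured with 100 nM 25(OH)D, the main vitamin D metabolite in the circulation (EG), or with its solvent, alcohol (CG). RNA was collected on day 5, and each group had 3 libraries, so every value comes from a single line and a single time point. The study's methods call the libraries biological replicates, and the labels do not say whether they came from separate cultures, so the p-values measure the spread between these libraries, part of which may be technical.

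Small nucleolar RNAs (snoRNAs) guide the chemical modification of ribosomal and spliceosomal RNA, and most human snoRNAs are cut out of the introns of a longer host transcript. In the SNHG genes and GAS5 the spliced host codes for no conserved protein, and several of these spliced RNAs, GAS5 among them, are destroyed by nonsense-mediated decay when ribosomes translate them. MALAT1 is one of the most abundant nuclear RNAs and lies in nuclear speckles, bodies rich in splicing factors, whereas NEAT1 is the scaffold on which paraspeckles are built. Both lie close to each other on chromosome 11, and the end of the MALAT1 transcript is cut by RNase P.

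All 10 members passed the low-count filter. In EG, GAS5 and NEAT1 were lower than in CG, no member was called higher, and the change of the other 8 did not pass the test. GAS5 reached 77.4% and NEAT1 reached 70.6% of its mean CG level. Thus 2 of 10 members were called at an adjusted p under 0.05, against 33.8% of all genes tested in either direction, 16.5% lower and 17.3% higher, and this share of members is not above the background. The fold change was below zero for 10 of 10 members and for 9324 of the 18183 genes tested. The median log2 fold change was -0.22 over the members and -0.011 over all genes tested, whose quartiles were -0.23 and 0.22. In RNA from whole cultures, fewer cells expressing an RNA and less RNA per cell cannot be told apart.

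The libraries held between 33268860 and 40928176 counts, so that 3 counts were worth between 0.0720 and 0.0921 CPM (counts scaled to a common library size, with TMM factors). Mitochondrial transcripts took between 7.85% and 7.99% of the counts in CG and between 8.89% and 9.24% in EG, and the part of this difference in the members' values was not tested. The 10 markers of the line were all expressed, with a summed level of 4633 to 4767 CPM in CG and 4791 to 4824 CPM in EG, and ESR1 and PGR, the receptors the line lacks, had at most 8 counts in any library. Of 9 markers of immune, endothelial and stromal cells only COL1A1 passed the low-count filter, the summed level of the 9 lay between 37.2 and 39.4 CPM in CG and between 32.7 and 35.3 CPM in EG, and 2 of them, CD3E and CD79A, had no more than 3 counts in any library.

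The transcription start of many snoRNA hosts is known for a run of pyrimidines that begins with C, the 5′ terminal oligopyrimidine (TOP) signature shared with ribosomal protein genes, and the start sequences are shown for that reason. RefSeq gave 8 start sites for 7 of the 10 members. Each line below holds 70 bases, from 40 bases before the RefSeq start onward, on the strand of the gene in GRCh38.p14, and capitals mark the letters TATAA, or the longest stretch of at least 5 pyrimidines that can be read from a C within 10 bases of the start, counted from that C even where pyrimidines precede it.
SNHG5, chr6:85678704-85678773, minus strand: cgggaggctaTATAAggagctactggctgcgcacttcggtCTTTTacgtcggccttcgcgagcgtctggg
SNHG7, chr9:136728155-136728224, minus strand: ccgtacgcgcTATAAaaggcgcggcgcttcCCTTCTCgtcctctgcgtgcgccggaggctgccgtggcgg
SNHG8, chr4:118278722-118278791, plus strand: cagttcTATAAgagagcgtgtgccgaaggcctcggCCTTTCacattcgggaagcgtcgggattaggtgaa
SNHG12, chr1:28581844-28581913, minus strand: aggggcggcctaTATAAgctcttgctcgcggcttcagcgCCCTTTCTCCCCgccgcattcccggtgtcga
GAS5, chr1:173869016-173869085, minus strand: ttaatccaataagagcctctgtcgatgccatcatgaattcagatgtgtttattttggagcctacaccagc
MALAT1, chr11:65497698-65497767, plus strand: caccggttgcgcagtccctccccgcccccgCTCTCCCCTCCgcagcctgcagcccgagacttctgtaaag

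Such a stretch was found at 5 of the 8 starts and at 33.5% of the 35116 promoters in the RefSeq table. It held 5 bases in SNHG5, 7 in SNHG7, 6 in SNHG8, 12 in SNHG12 and 11 at the first MALAT1 start. Counted from the start as 0, it begins at 0 in SNHG5, -1 in SNHG12, -5 in SNHG8 and -10 in SNHG7 and MALAT1. Bases at negative positions precede the RefSeq start and are not in an RNA that begins there. This holds for the whole stretch in SNHG7 and for all but its last base in SNHG8 and MALAT1. In SNHG7 the pyrimidines continue upstream of the capitals, beyond the 10 bases searched, and a shorter stretch that also meets the rule lies at the start itself. The letters TATAA, searched on the strand of the gene between 40 and 20 bases before the start, were present in SNHG5, SNHG7, SNHG8, SNHG12 and the second MALAT1 start, that is 5 of 8, against 3.91% of all promoters. Neither was found at the RefSeq start of GAS5 or at that of SNHG1, whose sequence is not printed here. These starts lie 163 and 29 bases from the 5′ ends of GAS5 and SNHG1 in the table of counts, and those ends were not searched. A missing match therefore does not show that these genes lack the signature. The E-box CACGTG, searched on both strands of 300 bases around the start, occurred in SNHG7 alone (7.26% of all promoters), and AGGTCA, the half-site of several nuclear receptors, occurred in GAS5 alone (13.8%). These are matches of letters and say nothing about binding. The GAS5 start in RefSeq lies 163 bases outside the 5′ end of the gene in the table of counts, and that of SNHG12 lies 1110 bases inside it, so the annotations differ on where these genes start.

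Because reads fall on a long RNA more often than on a short one, levels of different members were compared only per length, as RPKM. The length used is that of all annotated exon bases of a gene, such as 22767 for NEAT1 and 1247 for SNHG6. Reads need not cover these bases evenly. The short rows NEAT1_1, NEAT1_2 and NEAT1_3 within NEAT1, described below, stood at 336, 68.4 and 253 RPKM in CG. The order of the members therefore depends on the annotated lengths. MALAT1 was the most abundant member in CG at 555 ± 253 RPKM (SD, n = 3), followed by SNHG6 at 63.6 ± 6.18 and NEAT1 at 28.3 ± 3.63 RPKM. SNHG8 came next at 22.7 ± 1.35 RPKM, and the ranges of NEAT1 and SNHG8 over the CG libraries touched each other. GAS5 stood at 10.2 ± 0.507 and SNHG7 at 4.68 ± 0.365 RPKM, each with a range clear of its neighbours. SNHG12, SNHG1 and SNHG5 did not differ beyond their spread, at 3.38 ± 0.0916, 3.33 ± 0.160 and 3.08 ± 0.510 RPKM. SNHG15 was the least abundant at 2.41 ± 0.0874 RPKM. The order was the same in EG apart from SNHG5 and SNHG1, which changed places within overlapping ranges, and NEAT1 and SNHG8 came closer, at 19.4 ± 1.22 and 18.5 ± 2.22 RPKM.

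GAS5 (growth arrest specific 5, chr1:173863900-173868882, minus strand, 5 exon blocks in the table) takes its name from its accumulation in cells that stop dividing. Its level was 35.6, 35.2 and 38.8 CPM in CG 1, CG 2 and CG 3, and 30.3, 25.9 and 28.6 CPM in EG 1, EG 2 and EG 3. The highest EG library lay below the lowest CG library. On average GAS5 went from 36.5 ± 1.99 to 28.3 ± 2.21 CPM (SD, n = 3), a log2 fold change of -0.37 with a standard error of 0.0714 and a 95% interval from -0.52 to -0.22 (adjusted p = 0.00101, edgeR quasi-likelihood test with Benjamini-Hochberg adjustment). No library decided this result, since with each library left out the log2 fold change stayed between -0.42 and -0.30 and the adjusted p did not exceed 0.00997. GAS5-AS1, on the opposite strand, shares 42 exon bases with GAS5 and had between 5 and 23 counts.

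**Figure D1:**
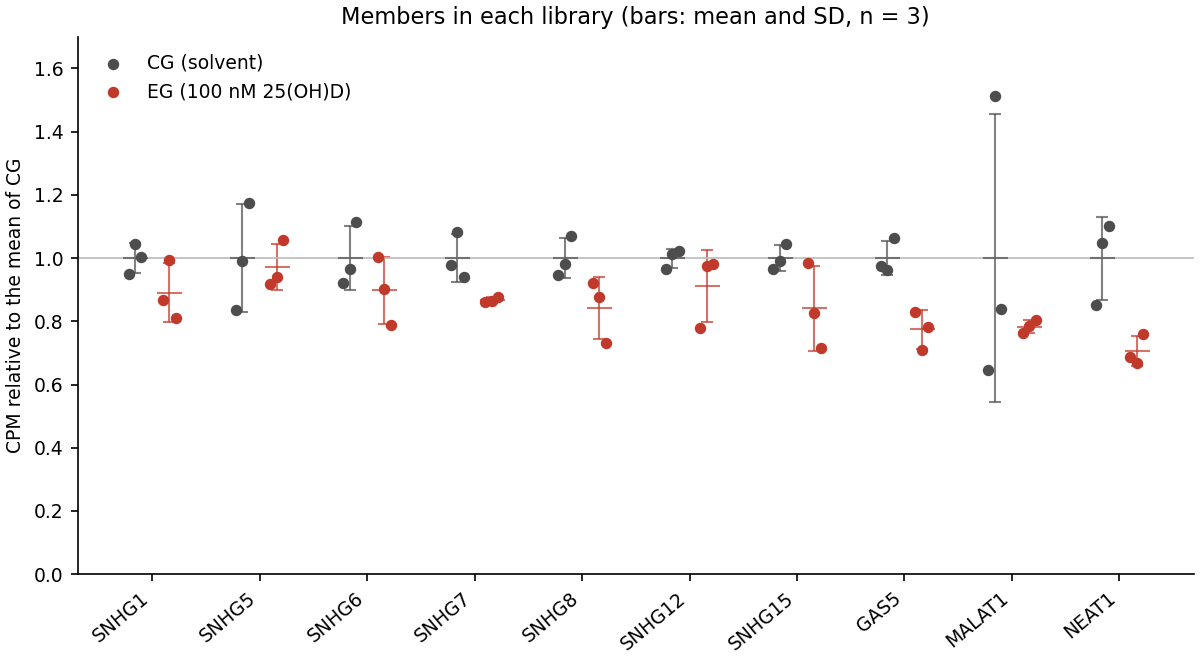
Level of each of the 10 members in each library, as CPM relative to the CG mean of that gene (y axis), with 1 point for each CG and EG library and bars for the mean and SD of each group (n = 3). The groups are apart in GAS5, NEAT1, SNHG7 and SNHG8 and overlap in the other 6, and 1 CG library, CG 2 at 7237 CPM, stands above all others in MALAT1.

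The groups also did not overlap in SNHG7 and SNHG8, so that 4 of 10 members had separate groups, against 45.7% of all genes tested. SNHG7 (chr9:136721366-136728184, minus strand), whose locus carries SNORA17A and SNORA17B, measured 19.6, 21.7 and 18.8 CPM in CG and 17.3, 17.3 and 17.6 CPM in EG. The 3 EG libraries lay close together just below the lowest CG library. The log2 fold change was -0.21 ± 0.0763 (standard error, n = 3; edgeR adjusted p = 0.0524), which missed the threshold. SNHG8 (chr4:118278709-118279823, plus strand), the host of SNORA24, measured 19.5, 20.3 and 22.1 CPM in CG and 19.0, 18.1 and 15.1 CPM in EG. EG 1 came near to CG 1, and EG 3 was the lowest library. Its log2 fold change was -0.24 ± 0.0908 (standard error, n = 3; edgeR adjusted p = 0.0521) and also missed the threshold. At an unadjusted p under 0.05 the count of members lower rose to 4, these 2 with GAS5 and NEAT1, and that of members higher stayed at 0, against 42.2% of all genes in either direction. DESeq2 called 2 members lower and 0 higher. With an unadjusted p under 0.05 and a log2 fold change beyond 1 in size required, 0 members were called, against 6.65% of all genes.

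In SNHG6, the host of SNORD87 and the most abundant snoRNA host here (chr8:66921684-66926398, minus strand), the level was 72.0, 75.4 and 87.2 CPM in CG and 78.4, 70.6 and 61.7 CPM in EG. EG 1 lay within the range of CG and EG 3 lay below it. The log2 fold change was -0.15, with a 95% interval that included zero (-0.33 to 0.024; edgeR adjusted p = 0.178). SNHG15 (chr7:44983023-44986961, minus strand), the host of SNORA9, had 8.38, 8.59 and 9.07 CPM in CG and 8.53, 7.18 and 6.20 CPM in EG. Again EG 1 was inside the CG range, and EG 3 was the lowest. The log2 fold change of SNHG15 was -0.25 (-0.51 to 0.015; edgeR adjusted p = 0.141), close to that of SNHG8 with a wider interval. Without EG 1 it was -0.37 with an adjusted p of 0.0403.

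SNHG1 (chr11:62851988-62855914, minus strand) carries several snoRNAs, mostly box C/D snoRNAs of the SNORD22 and SNORD25 to SNORD30 group. Its level was 11.7, 12.9 and 12.4 CPM in CG and 10.7, 12.3 and 10.0 CPM in EG. EG 2 lay within the CG range and the other EG libraries lay below it, with a log2 fold change of -0.16 (-0.37 to 0.046; edgeR adjusted p = 0.225). SNHG12 (chr1:28578538-28582983, minus strand), which holds SNORA16A, SNORA44, SNORA61 and SNORD99, measured 10.9, 11.4 and 11.5 CPM in CG and 8.76, 10.9 and 11.0 CPM in EG. EG 1 was the library apart, and EG 2 and EG 3 were at the level of CG 1 (log2 fold change -0.13, interval -0.36 to 0.090, edgeR adjusted p = 0.361).

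SNHG5 (chr6:85660950-85678736, minus strand), the host of SNORD50B, showed no detectable difference. It measured 7.08, 8.41 and 9.97 CPM in CG and 7.79, 7.98 and 8.96 CPM in EG. Every EG library lay within the range of CG. The log2 fold change was -0.040 with an interval from -0.32 to 0.23 (edgeR adjusted p = 0.843), so a change of the size seen in GAS5 is outside this interval and one of the size seen in SNHG8 is inside it. Its sign turned to 0.097 without CG 3 and to 0.0031 without EG 1.

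The summed level of the 8 snoRNA hosts was 185, 194 and 210 CPM in CG and 181, 170 and 159 CPM in EG. All EG libraries were below all CG libraries, although EG 1 was close to CG 1. The mean went from 196 ± 12.7 to 170 ± 10.8 CPM (SD, n = 3), a log2 ratio of -0.21. With 3 libraries against 3 the two-sided exact permutation test gave p = 0.1, which is the smallest it can give. SNHG6 and GAS5 make up much of this sum, and the median log2 fold change of the 8 single genes was -0.18.

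**Figure D2:**
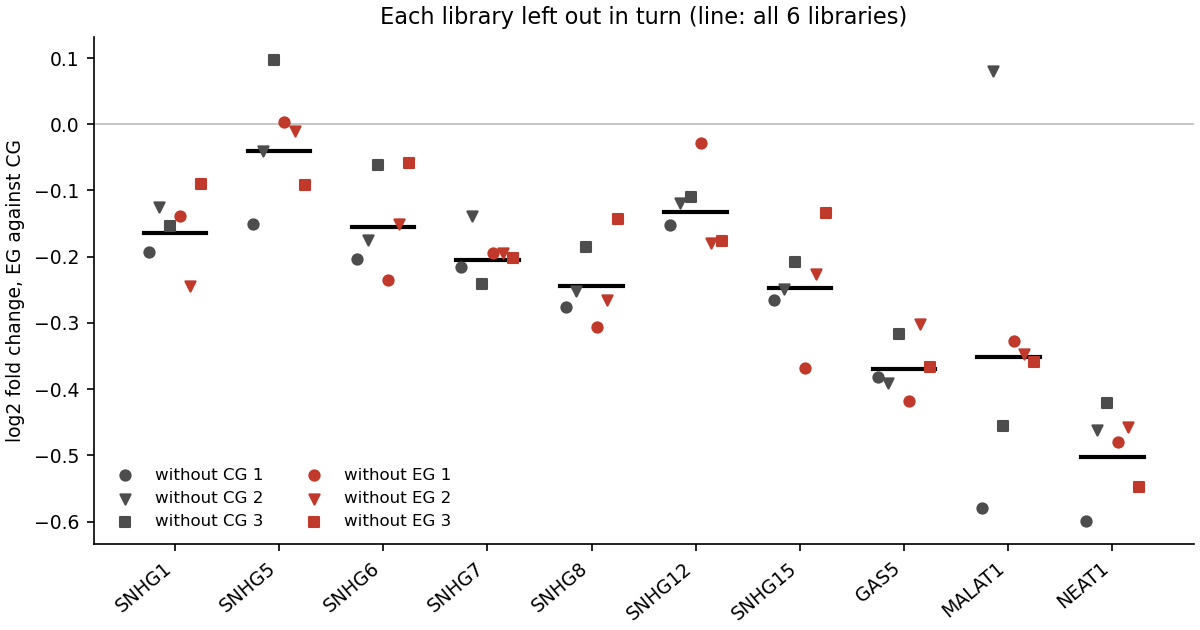
Log2 fold change of EG against CG (y axis) for each member, as a line for all 6 libraries and as a point for each library left out in turn. GAS5 stays between -0.42 and -0.30 and NEAT1 between -0.60 and -0.42, whereas MALAT1 runs from -0.58 to 0.080, its highest point being that without CG 2.

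The snoRNAs themselves are too short to be recovered well in mRNA libraries, and their rows in the table appear to share reads with the host. Within the spans of the hosts lay 10 snoRNA rows, in 5 of the 8 hosts, and 9 of them lay wholly inside exons of the host, so a read there cannot be assigned to the snoRNA or to the host. The largest were SNORA61 in SNHG12, with 131, 130 and 149 counts in CG and 108, 118 and 101 in EG, and SNORA17A in SNHG7, with 95, 74 and 82 counts in CG and 63, 73 and 50 in EG. SNORD26 in SNHG1 had 68, 45 and 50 counts in CG and 69, 58 and 61 in EG. None of these 3 passed the test, with log2 fold changes of -0.20, -0.30 and 0.35 (edgeR adjusted p = 0.377, 0.276 and 0.285). GENCODE 29 lists 20 snoRNA or related genes inside 7 of the 8 hosts, 7 of them in SNHG1, 5 in SNHG12 and 4 in SNHG7, and the snoRNAs of GAS5 are not listed in the annotation used here.

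Some hosts also share exon bases with a gene on the opposite strand. FAM69B, a gene coding for a protein of the endoplasmic reticulum, shares 1094 bases with SNHG7 and was lower in EG (log2 fold change -0.36, edgeR adjusted p = 0.0248), and MCMDC2 shares 365 bases with SNHG6 and did not pass the test (-0.17, adjusted p = 0.508). The part of these shared bases in the values of SNHG7 and SNHG6 was not tested.

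NEAT1 (chr11:65422774-65445540, plus strand) is a single-exon RNA of 22767 bases in the table, which covers both its short and its long form, so the 2 forms cannot be told apart from its count. It measured 541, 666 and 699 CPM in CG and 437, 425 and 483 CPM in EG. Each EG library was below each CG library, and CG 1 was the CG library closest to EG. On average it went from 635 ± 83.4 to 449 ± 30.6 CPM (SD, n = 3), a log2 fold change of -0.50 with a standard error of 0.0754 and a 95% interval from -0.66 to -0.34 (edgeR adjusted p = 1.21e-04). NEAT1 had the largest fall of the 10 members. With each library left out the log2 fold change ran from -0.60 to -0.42, and the adjusted p was at most 0.00181.

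The table also holds 3 short rows named NEAT1_1, NEAT1_2 and NEAT1_3, which are conserved segments of 120, 105 and 159 bases within NEAT1 and not its isoforms. NEAT1_1 had 1465, 1545 and 1587 counts in CG and 958, 1049 and 857 in EG, with a log2 fold change of -0.56 (edgeR adjusted p = 4.33e-05). The values for NEAT1_2 and NEAT1_3 were -0.42 and -0.51 (adjusted p = 0.0149 and 1.37e-04). Their bases are also bases of NEAT1, and so these rows are no separate evidence. Together their counts amounted to 13.7 ± 0.722% of the NEAT1 count in CG and 13.4 ± 0.965% in EG (SD, n = 3). This difference was within the spread (two-sided exact permutation p = 0.8).

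MALAT1 (chr11:65497762-65506516, plus strand, 8755 bases in a single exon in the table) took between 0.315% and 0.736% of all counts. Its level was 3097, 7237 and 4018 CPM in CG and 3645, 3757 and 3843 CPM in EG. The EG libraries lay close together and inside the range of CG, and CG 2 was far above the other 5. The log2 fold change was -0.35 ± 0.202 (standard error, n = 3; edgeR adjusted p = 0.207) and did not pass the test. The result rests on 1 library: without CG 2 the log2 fold change was 0.080 (adjusted p = 0.516), and without CG 1, the lowest, it was -0.58 (adjusted p = 0.00745). No direction can be given for MALAT1 from these libraries. The paper names a stranded mRNA library kit. How evenly such libraries recovered MALAT1 and NEAT1, and the part of this in their levels and ratio, was not tested.

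Of 11179 genes over 5 CPM, only MALAT1 (2.03-fold) and AP000769.1 (2.29-fold) were higher in CG 2 by more than 1 on the log2 scale. The comparison was with the mean of the other CG libraries, and genes lower in CG 2 were not counted. AP000769.1 is annotated on the opposite strand, with its 1589 bases wholly inside the MALAT1 exon. It had 7568, 18483 and 9007 counts in CG and 7591, 8144 and 6826 in EG, that is 5.45% to 6.75% of the MALAT1 count in every library, and it followed MALAT1 from library to library. Whether its reads come from MALAT1 was not tested, and the strand setting of the counting is not known. The row is thus no separate evidence on CG 2. A further opposite-strand gene inside MALAT1, AP000769.7, had between 0 and 4 counts. The row for the small tRNA-like RNA that is cut from the MALAT1 end, pooled in the table with that of NEAT1, had 51 to 74 counts and a log2 fold change of -0.0076.

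**Figure D3:**
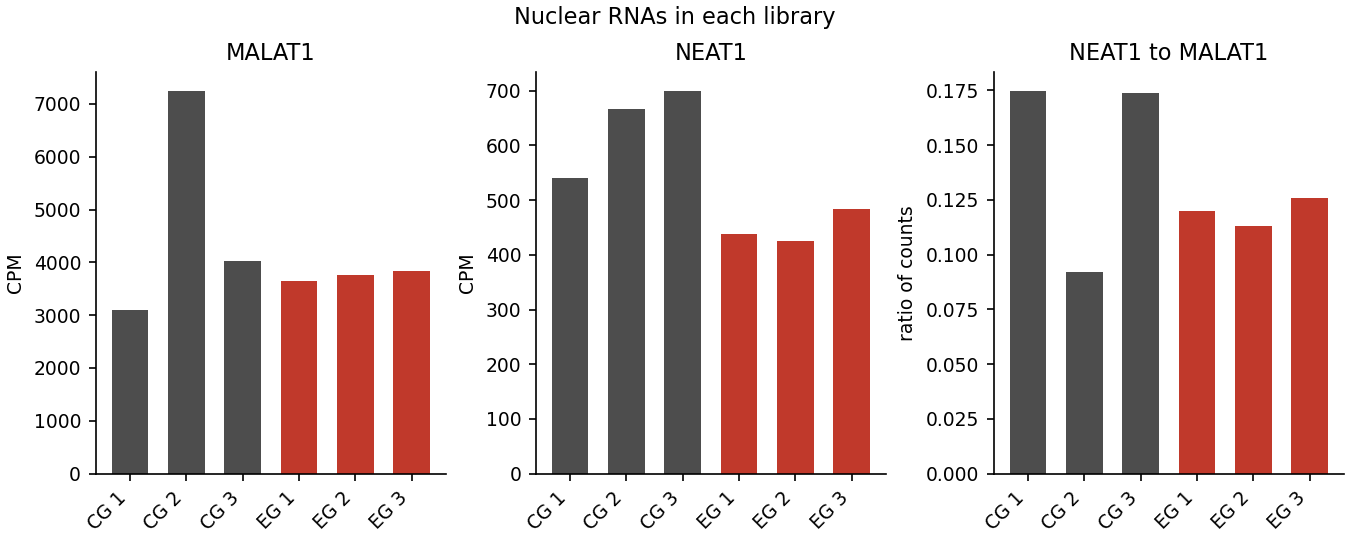
Bars give the level of MALAT1 and of NEAT1 in CPM and the ratio of their counts (y axes, from 0) in each of the 6 libraries. MALAT1 is highest in CG 2 at 7237 CPM, NEAT1 is lower in every EG library than in every CG library, and the ratio is lowest in CG 2 at 0.0921.

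The ratio of the NEAT1 count to the MALAT1 count was 0.175, 0.0921 and 0.174 in CG and 0.120, 0.113 and 0.126 in EG. CG 2 lay below EG and the other CG libraries above it. The means of 0.147 ± 0.0475 and 0.120 ± 0.00628 did not differ beyond the spread (SD, n = 3; two-sided exact permutation p = 0.4). The log2 ratio of EG to CG was -0.30, and it was -0.54 without CG 2, -0.15 without CG 1 and -0.16 without CG 3.

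The other lncRNAs that host snoRNAs moved in both directions. Of 25 listed, 20 were in the table and 18 were tested. Of those tested, 5 were lower, 3 were higher and 10 did not pass, and the median log2 fold change was -0.17. The share called was 44.4%, against 33.8% of all genes tested. The largest rise was that of SNHG22, from 18.6 ± 1.35 to 40.9 ± 1.80 CPM (log2 fold change 1.14, edgeR adjusted p = 1.65e-08). SNHG22 is transcribed within the locus of MYO5B, the gene of a motor protein of membrane traffic, and 229 of its 2593 exon bases lie opposite MYO5B, which itself went from 13825, 11924 and 11128 counts to 26687, 30477 and 24899. SNHG14, the long RNA of the imprinted Prader-Willi region that holds arrays of SNORD115 and SNORD116, rose from 48.2 ± 1.36 to 99.2 ± 2.62 CPM (log2 fold change 1.04, adjusted p = 6.13e-10). It shares exon bases on the same strand with SNRPN and RP11-701H24.9, whose reads cannot be kept apart there. SNHG11 also rose (log2 fold change 0.74, adjusted p = 0.00159).

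Among the 5 that fell, the rule named EPB41L4A-AS1, the host of SNORA13, which went from 33.1 ± 1.89 to 23.4 ± 0.843 CPM (log2 fold change -0.50, edgeR adjusted p = 4.86e-05) and has 1659 exon bases opposite EPB41L4A. SNHG16, SNHG29 (listed as LRRC75A-AS1) and SNHG3 fell by 0.44, 0.39 and 0.38 on the log2 scale (adjusted p = 1.11e-05, 3.66e-04 and 0.00636), values near that of GAS5. SNHG3 shares 242 exon bases on the same strand with RCC1, which went from 3577, 3412 and 3439 counts in CG to 2353, 2846 and 2315 in EG. SNHG29 has 452 exon bases opposite LRRC75A. The part of these shared bases in the values of SNHG3 and SNHG29 was not tested. LINC00910 fell too (-1.15, adjusted p = 0.0198) at 12 to 43 counts, and GENCODE 29 lists no snoRNA gene inside it. SNHG14, SNHG11, SNHG16, SNHG29, SNHG3 and LINC00910 fell outside the rule for named genes and were chosen after their values were seen.

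**Figure D4:**
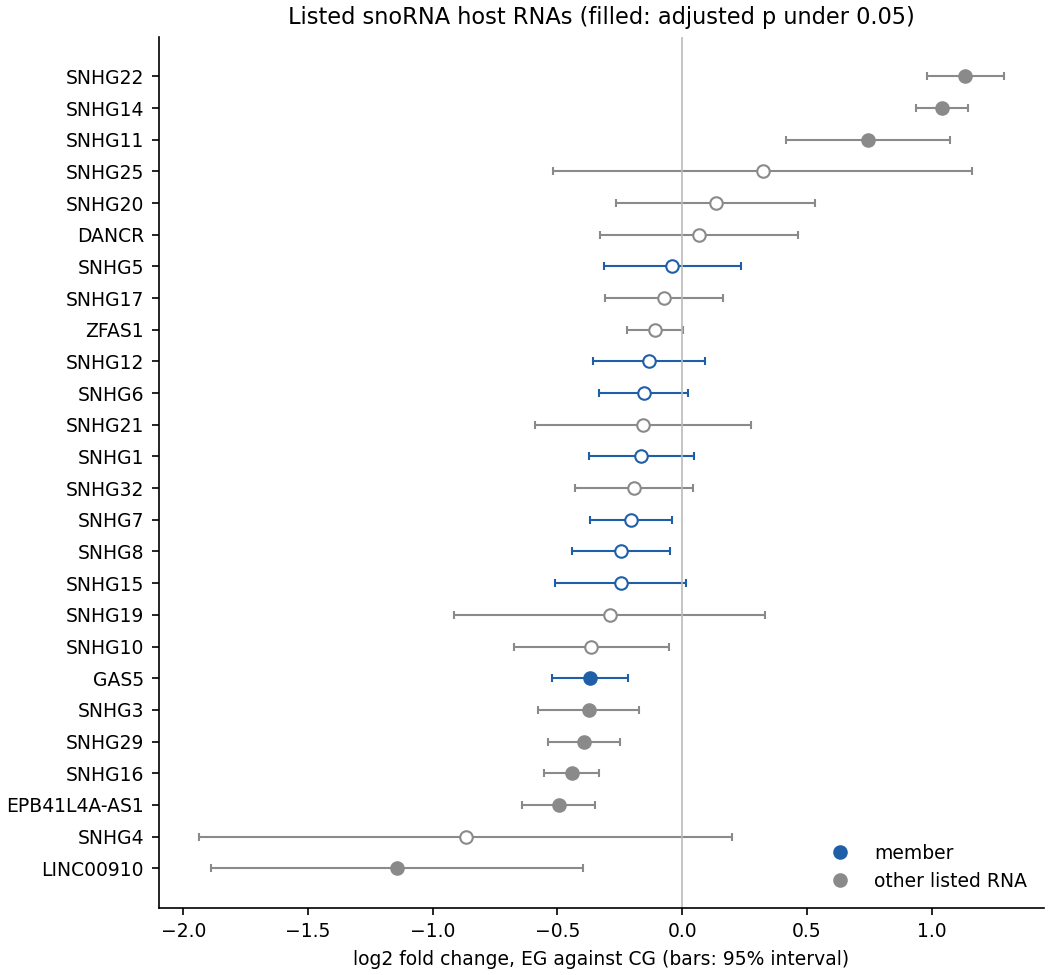
Log2 fold change of EG against CG (x axis) with its 95% interval for the 8 snoRNA host members and the 18 other listed RNAs that were tested, filled where the adjusted p was under 0.05. SNHG22, SNHG14 and SNHG11 lie to the right of zero, and GAS5 is the only filled point among the 8 members.

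Among host genes that code for proteins, most of them of the ribosome or of translation, more were lower than higher. Of 61 tested, 37 were lower and 0 were higher, and the median log2 fold change was -0.20. At an unadjusted p under 0.05 edgeR gave 40 lower and 0 higher. RPL13A, a ribosomal protein gene with 4 snoRNAs in its introns, fell from 647 ± 31.5 to 464 ± 32.1 CPM (log2 fold change -0.48, edgeR adjusted p = 3.55e-06). Over the 79 cytosolic ribosomal protein genes, many with close pseudogenes, 60 were lower and 1, RPL10A, was higher (0.13, adjusted p = 0.0494), with a median of -0.23. Of 26 other genes known for mRNAs with the TOP signature, most of them translation factors, 17 were lower and 1 was higher, with a median of -0.19. In that list HNRNPA1 fell by 0.48 (adjusted p = 9.70e-08) and PABPC1, the cytoplasmic poly(A)-binding protein, rose by 0.30 (adjusted p = 8.61e-06) on the log2 scale. The shares lower in the 3 lists were 60.7%, 75.9% and 65.4%, against 16.5% of all genes tested. Their medians are near that of the 8 snoRNA host members (-0.18). The lists of protein-coding hosts and of ribosomal proteins share genes, RPL13A among them, and so are not independent of each other.

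The proteins that pack snoRNAs were mixed. Of 25 snoRNP proteins and assembly factors 9 were lower and 2 were higher, with a median of -0.088. The share called was 44%, against 33.8% of all genes tested. FBL (fibrillarin), the methyltransferase of box C/D snoRNPs, fell from 41.7 ± 2.93 to 30.1 ± 1.08 CPM (log2 fold change -0.47, edgeR adjusted p = 6.00e-05), and the 5′ exonuclease XRN1, which is also on this list, rose (0.31, adjusted p = 8.47e-04). Of the 24 factors of nonsense-mediated decay, the pathway that removes spliced GAS5, 6 were lower and 1 was higher, with a median of -0.12. The share called was 29.2%, which is not above the 33.8% of all genes tested. RNPS1, a splicing factor of the exon junction complex, fell by 0.39 (adjusted p = 2.33e-05) and UPF3B rose by 0.15 (adjusted p = 0.0126) on the log2 scale.

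The proteins that meet NEAT1 and MALAT1 were lower more often than higher. Of 35 paraspeckle proteins 23 were lower and 1 was higher, SS18L1 (0.25, edgeR adjusted p = 0.0114), and the median log2 fold change was -0.21. HNRNPA1 had the largest fall there too, from 2916 ± 126 to 2092 ± 38.3 CPM. The core paraspeckle proteins SFPQ, NONO and PSPC1 fell by 0.20, 0.25 and 0.21 on the log2 scale (adjusted p = 2.72e-04, 3.13e-05 and 7.06e-04), and they were picked for their role with their values known. Of 37 nuclear speckle proteins 18 were lower and 2 were higher, with a median of -0.12. ALYREF, an mRNA export adaptor, fell by 0.44 (adjusted p = 4.34e-05) and the splicing kinase CLK4 rose by 0.27 (adjusted p = 0.00568). Of 27 proteins of RNase P, RNase MRP, Integrator and other factors that act at RNA ends, 10 were lower and 0 were higher (median -0.15). The counts were 11 and 0 at an unadjusted p under 0.05 and 6 and 0 by DESeq2. The Integrator subunit INTS6 fell from 229 ± 10.3 to 164 ± 6.40 CPM (log2 fold change -0.48, edgeR adjusted p = 1.14e-06). In the order given, the shares lower in these lists were 65.7%, 48.6% and 37%, against 16.5% of all genes tested.

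Of 23 other noncoding RNAs, 18 were in the table and 13 were tested. Of those tested, 3 were lower and 2 were higher, and the median log2 fold change was -0.15. The share called was 38.5%, near the 33.8% of all genes tested. HOTAIR, a lncRNA of the HOXC cluster, fell from 19.8 ± 2.38 to 14.7 ± 0.877 CPM (log2 fold change -0.43, edgeR adjusted p = 0.00276), and CRNDE rose from 31.0 ± 2.92 to 38.8 ± 6.42 CPM (0.32, adjusted p = 0.0238). Among the markers of the line, GATA3 fell (-0.80, adjusted p = 8.56e-10), and of the markers of other cell types COL1A1 fell by 0.18 (adjusted p = 0.0320).

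**Figure D5:**
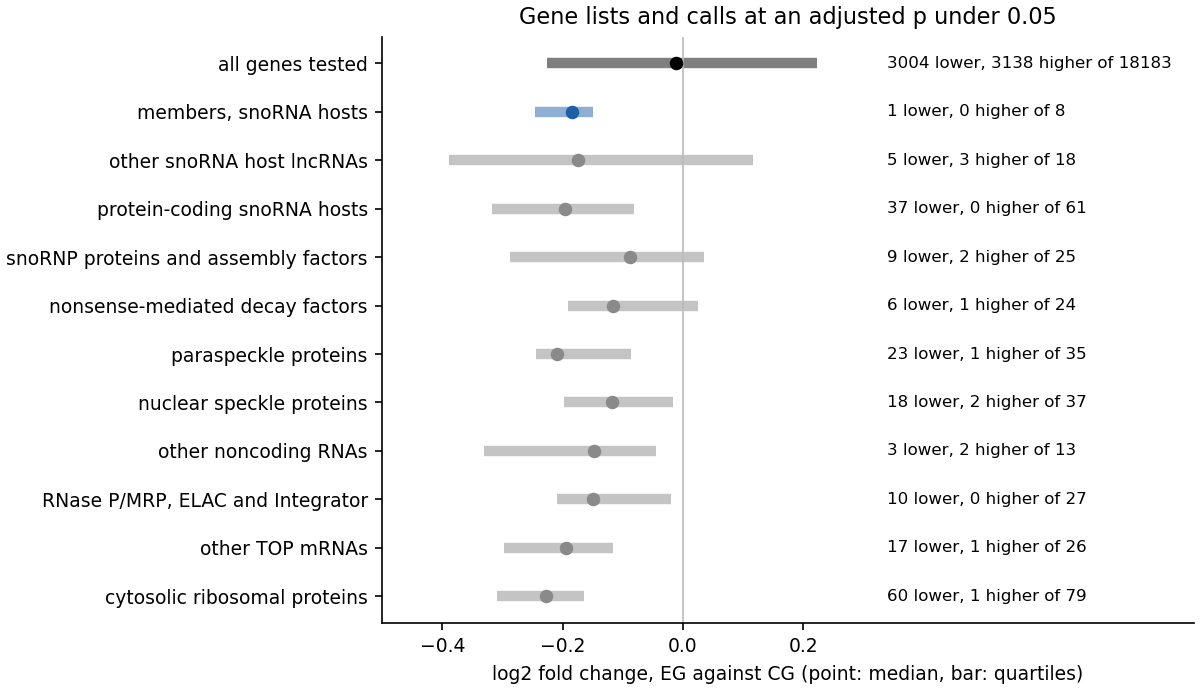
Median (point) and quartiles (bar) of the log2 fold change of EG against CG (x axis) in the gene lists shown and over all genes tested, with the numbers called lower and higher at an adjusted p under 0.05 written beside them. The 8 snoRNA host members have a median of -0.18 with 1 lower and 0 higher, and the cytosolic ribosomal proteins have a median of -0.23, with 60 lower of 79.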

How the data were processed

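RNA of MDA-MB-453 cells was sequenced after 5 days with 100 nM 25(OH)D (EG) or solvent (CG), with 3 libraries in each group, grouped by the labels. The authors deposited a table of counts, which are unscaled whole reads on each gene, and a table of RPKM values, that is counts divided by gene length and library total, which was checked on every value (largest relative difference 5.14e-15). The submitters' processing notes name Trimmomatic 0.36, featureCounts of Subread 1.5.1, edgeR 3.12.1 and GRCh38. The aligner, the annotation release and the strand and overlap settings are not given in the sources used here. Rows wholly inside another row on the same strand, such as NEAT1_1 in NEAT1, hold counts. Some reads therefore appear to count on more than 1 row.

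The counts were fitted with edgeR 4.0.16 in R 4.3.3 (TMM factors, default low-count filter with a minimum count of 10, quasi-likelihood test of EG against CG without covariates), and p-values were adjusted by the Benjamini-Hochberg method across all 18183 genes in the fit. Intervals of fold changes are 95% intervals on the degrees of freedom of that test. The biological coefficient of variation was 0.0788. For single values the exact permutation test was used, two-sided, which cannot give a p below 0.1 here. Alternatives were other size factors, no filter, DESeq2 1.42.0, limma 3.58.1 on log2(RPKM + 1) and log2(RPKM + 0.1), the limits of an absolute log2 fold change over 1 with an unadjusted p under 0.05, the replicate number as a block, and the omission of each library. The test was checked on simulated data. It recovered 15 of 50 genes changed 1.2-fold, 38 of 50 changed 1.5-fold and 50 of 50 changed 2-fold, with 16 false calls. Small changes were thus often missed. No libraries were duplicates, since pairs within a group differed by more than sampling noise (from 4.01 to 12.1 in chi-square per gene).

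The members and the 13 gene lists were chosen with earlier results of these data known. The genes named were the members, the rows that share exon bases with them and, in each list, the gene with the largest change in each direction among those with an adjusted p under 0.05 whose higher group averaged 100 counts or more, and exceptions are marked. A further gene covered by this rule is left out. Exon positions came from the table of counts, snoRNA genes from GENCODE 29 and start sequences from RefSeq (GRCh38.p14). Sequence and plots used Python 3.11.15 with pandas 2.3.3, numpy 2.4.6 and matplotlib 3.10.9.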

Additional observations from a re-analysis of the deposited data

How the results depend on the processing

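With all 3 libraries of each group, GAS5 and NEAT1 were called lower in edgeR, DESeq2 and limma under every size factor and filter tried. Log2 fold changes ran from -0.41 to -0.36 for GAS5 and from -0.55 to -0.50 for NEAT1. With edgeR without the filter left aside, the adjusted p ran from 3.89e-05 to 0.0125 for GAS5 and from 2.65e-05 to 0.0235 for NEAT1. That setting gave 8.70e-06 for GAS5 and 6.09e-37 for NEAT1. It also called MALAT1, whose groups overlap, so these values are no added evidence. At the limits of a log2 fold change over 1 with an unadjusted p under 0.05, 0 members were called, because none changed that much, and genes higher and lower numbered 731 and 478 in place of 3138 and 3004. The number of members lower rose from 2 to 4 with upper-quartile factors, with library totals alone and with limma on log2(RPKM + 0.1), and to 5 without the filter. Over all genes, those lower rose from 3004 to 3613, 3667 and 3169 and those higher fell from 3138 to 2705, 2689 and 2408 under the first 3 of these settings. SNHG7 then passed at -0.25 with upper-quartile factors and with library totals alone, at -0.20 with limma on log2(RPKM + 1) and at -0.24 on log2(RPKM + 0.1) (adjusted p = 0.0212, 0.0219, 0.0472 and 0.0429). SNHG8 passed at -0.29 with upper-quartile factors, with library totals alone and with limma on log2(RPKM + 0.1), and at -0.24 without the filter (adjusted p = 0.0266, 0.0244, 0.0497 and 0.0356). Without the filter SNHG6 passed at -0.15 (adjusted p = 0.0467) and MALAT1 at -0.35 (adjusted p = 3.52e-37), and the cause was not tested. Limma on log2(RPKM + 1) without a filter gave 1998 genes higher. No scaling moved the median of all genes by over 0.1.

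With each library left out, members lower ran from 2 to 4 (4 without EG 1), genes higher from 2742 to 3031 and genes lower from 2349 to 2666. The log2 fold change turned positive in SNHG5 without CG 3 (0.097) and without EG 1 (0.0031) and in MALAT1 without CG 2 (0.080), and the lowest values were -0.15 and -0.58. It ran from -0.24 to -0.14 in SNHG7, from -0.31 to -0.14 (without EG 3) in SNHG8, from -0.37 (without EG 1) to -0.13 (without EG 3) in SNHG15, from -0.24 (without EG 2) to -0.090 (without EG 3) in SNHG1, from -0.24 (without EG 1) to -0.059 (without EG 3) in SNHG6, where it was -0.062 without CG 3, and from -0.18 to -0.028 (without EG 1) in SNHG12. The summed nuclear level ran from -0.59 to 0.0067. The 10 genes lower among RNase P, RNase MRP and Integrator became 4 to 6. Over all lists and alternatives, 394 counts of calls stayed within 1.5 times the reported count and 86 did not.

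With the replicate block, 2 members were lower, GAS5 at -0.37 and NEAT1 at -0.50 (adjusted p = 0.00134 and 2.65e-05), and no member's call changed. Libraries with the same number did not deviate together (correlations -0.072, -0.012 and -0.046). No shared effect of the number was thus seen, but this cannot show whether such libraries were handled together, which the labels do not say. With 3 libraries in each group, changes as small as those of most members lie near what the spread allows to be called, and a missed call does not show that levels were equal.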
